A study of Rattus norvegicus with 9 samples.

Results

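The genes described here are the heat shock proteins and molecular chaperones measured in rat ventral midbrain and in cultures grown from it. The list was made by gene symbol and used no measured value, though it was chosen with earlier results of these data known. It takes every symbol that starts with Hsp90, Hspa (Hspa5 left out), Hspb, Hspd, Hspe, Hsph, Dnaja, Dnajb or Dnajc, every Cct or Bag symbol followed by a number, and Tcp1 and Hsf1. On the array, 66 of the 10411 genes that have a probe set naming 1 gene meet this rule. They lie on 84 probe sets, and each gene is given by its brightest probe set over the 9 arrays. Hspa8, Hsp90aa1 and Hspa1b are named on this array on probe sets shared with other genes and are not analysed here.

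Expression was measured on 9 Affymetrix arrays. MesPC is the primary culture of dissociated ventral midbrain cells, collected after 9 days in vitro (6 arrays), and MesE11 is the ventral midbrain tissue of embryonic day 11 (3 arrays). Embryos of 4 pregnant rats were combined and split into 3 groups, and each group gave a tissue pool and cultures in duplicate, so neither kind of sample stands for single animals. The labels give no strain, genotype or drug treatment. They speak of 3 arrays of each kind, while 6 culture arrays are analysed here, so these may hold fewer than 6 independent cultures. The p-values thus speak of the spread among the arrays, part of which may be technical.

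Chaperones bind unfolded or partly folded proteins and let them fold, refold or be degraded. Hsp70 proteins do this in cycles of ATP use that J-domain proteins (Hsp40, the Dnaj genes) start and that nucleotide exchange factors such as the Bag and Hsp110 proteins complete, while Hsp90 and the ring-shaped chaperonins act on proteins that are nearly folded or newly made. The factor Hsf1 switches on many of these genes after heat or other protein damage, and the endoplasmic reticulum (ER) and mitochondria hold chaperones of their own. In neurons, some J-domain proteins work at the synapse.

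Values are log2 intensities as the authors deposited them, and a difference of 1 is a 2-fold change. Differences are given ± their standard error from a limma fit over all 15866 probe sets, and a gene is said to have risen or fallen where its p, adjusted by the Benjamini-Hochberg method over all of them, is below 0.05. The number of arrays limits the precision, and the level of one probe set cannot be set against that of another. Across the probe sets of the array, which are no replicates of each other, Pearson's r was 0.997 to 0.998 within MesPC arrays 1-3 and also within MesPC arrays 4-6, 0.982 to 0.987 between these sets, and 0.995 to 0.997 within MesE11. The labels name nothing that parts the culture arrays. Arrays 1-3 lay farther from the tissue (r 0.943 to 0.953) than arrays 4-6 (0.966 to 0.974).

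The cell type markers differed between the groups as well. All 5 fibroblast markers, 4 of 4 markers of dividing cells and 3 of 4 astrocyte markers were higher in MesPC. All 5 dopaminergic markers, 4 of 5 general neuronal markers, 4 of 4 erythroid, 3 of 3 endothelial and 3 of 4 microglial markers were lower. The mean log2 intensity of the 5 neuronal markers was 10.1 to 10.47 on MesPC arrays 1-3, 11.44 to 11.46 on MesPC arrays 4-6 and 12.12 to 12.25 on MesE11 arrays. That of the 5 fibroblast markers was 11.97 to 12.15 on MesPC arrays 1-3, 11.96 to 12.07 on MesPC arrays 4-6 and 7.69 to 8.14 on MesE11 arrays. In such bulk samples fewer cells of a type and less RNA per cell cannot be told apart, and the part of cell composition in the results was not tested.

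Chaperone genes moved in both directions between culture and tissue. In MesPC, 13 members were higher and 14 were lower than in MesE11, 27 of 66 in all (40.9%), against 44.6% of all 10411 genes called in either direction, 21.9% called higher and 22.7% called lower. The members' share was thus near the background. The rises included 4 chaperones of the ER and were, on the log2 scale, largest for Hspb6, Hspa2 and Bag3, and the falls included 5 subunits of the cytosolic chaperonin and were largest for Hspa12a, Dnajb3 and Dnajb5. Changes were small: Hspa12a alone passed the test with at least a 2-fold difference, against 5.76% of all genes. The median difference was -0.036 over the members and -0.056 over all genes, and the median absolute difference was 0.185 over the members and 0.21 over all genes.

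All 6 culture arrays lay above all 3 tissue arrays for 12 members, against 21.1% of all genes, and below them for 14, against 23.3%. The separation of the culture arrays into sets bears on these counts. With the sets entered as a random block, 14 members passed the test (21.2%), against 22.4% of all genes. Of these, 9 were higher (Hspb6, Hspa2, Bag3, Dnajc1, Dnajc15, Dnajc10, Hsp90b1, Hspa9 and Dnajc13), against 13.2% of all genes, and 5 were lower (Hspa12a, Dnajb3, Dnajb5, Bag1 and Dnajc22), against 9.11%.

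**Figure D1:**
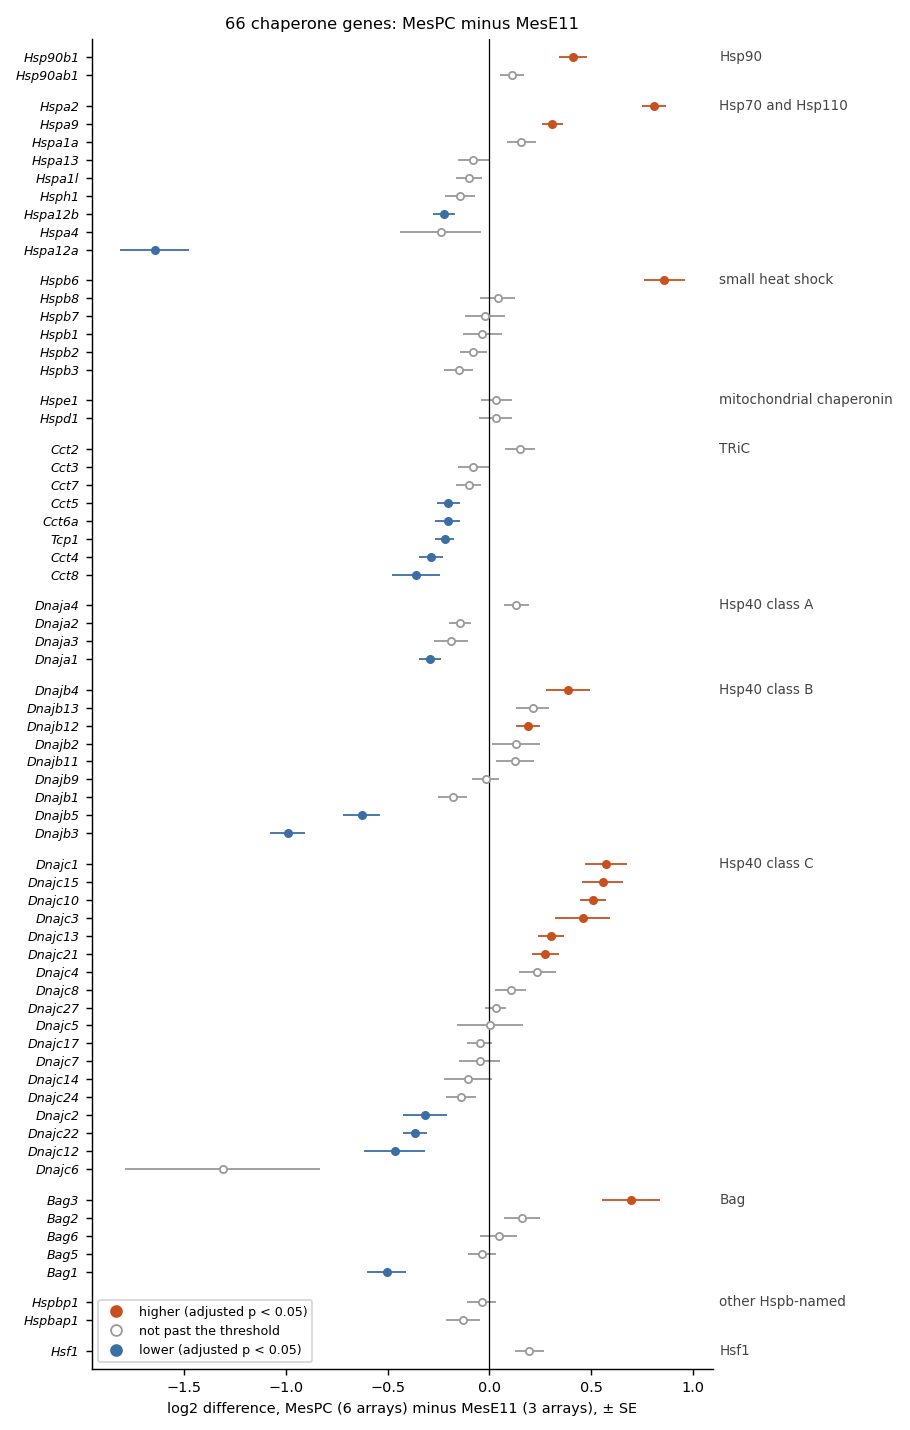
Log2 difference between MesPC (6 arrays) and MesE11 (3 arrays) for the 66 chaperone genes, grouped by family, with bars of 1 standard error. Filled points passed the test: 13 genes lie to the right of 0 (higher in MesPC) and 14 to the left.

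Among the 9 members of the Hsp70 and Hsp110 families, Hspa2 and Hspa9 rose and Hspa12a and Hspa12b fell in culture. The shares of all genes were 21.9% called higher and 22.7% called lower. Hspa12a, a distant relative of the Hsp70 proteins, gave 7.79, 7.63 and 7.60 on MesPC arrays 1-3, 8.15, 8.25 and 8.29 on MesPC arrays 4-6, and 9.47, 9.57 and 9.74 on MesE11 arrays. The groups did not overlap, and arrays 1-3 were the lowest. The difference was -1.64 ± 0.17 (adjusted p 5.66e-05), a 3.13-fold lower level in MesPC and the largest change of any member. Hspa12b, the related gene known from endothelium, fell by 0.22 ± 0.054 (adjusted p 0.0085), beside endothelial markers that were lower in 3 of 3 measured cases. The Hspa12b call was lost with the culture sets as a random block (adjusted p 0.104).

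Hspa2, an Hsp70 protein known best from the testis, gave 7.24, 7.04 and 7.18 on MesPC arrays 1-3, 7.22, 7.04 and 7.17 on MesPC arrays 4-6, and 6.33, 6.36 and 6.33 on MesE11 arrays. All culture arrays were above all tissue arrays and the culture sets overlapped. Its difference was 0.81 ± 0.060 (adjusted p 6.01e-06). The 3 tissue values lie below the brightest bacterial control probe set on the arrays (6.68), so the size of this rise is not given as a fold. Hspa9, the Hsp70 protein of mitochondria (mortalin), gave 11.32, 11.22 and 11.23 on MesPC arrays 1-3, 11.34, 11.19 and 11.21 on MesPC arrays 4-6, and 10.97, 10.92 and 10.93 on MesE11 arrays on its brightest probe set, a difference of 0.31 ± 0.053 (adjusted p 0.00128). Its other probe sets do not all move this way, as described further on.

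The stress-inducible Hspa1a did not pass the test. Its values were 8.75, 8.71 and 8.73 on MesPC arrays 1-3, 8.61, 8.68 and 8.56 on MesPC arrays 4-6, and 8.41, 8.47 and 8.67 on MesE11 arrays, so that the highest tissue array lay within the range of the cultures, and the difference was 0.16 ± 0.071 (adjusted p 0.1). Hspa1a and Hspa1b are near-identical in sequence, so this probe set may read RNA of both. Hspa4, a nucleotide exchange factor of the Hsp110 family, gave 10.76, 10.64 and 10.94 on MesPC arrays 1-3, 11.53, 11.49 and 11.19 on MesPC arrays 4-6, and 11.46, 11.35 and 11.19 on MesE11 arrays: arrays 1-3 were below all others, while arrays 4-6 overlapped with the tissue. Over the 6 culture arrays its difference was -0.24 ± 0.20 (adjusted p 0.337).

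Hsph1, the other Hsp110 protein here, gave 11.26, 11.13 and 11.07 on MesPC arrays 1-3, 11.34, 11.34 and 11.24 on MesPC arrays 4-6, and 11.28, 11.40 and 11.45 on MesE11 arrays (difference -0.14 ± 0.075, adjusted p 0.143). Its culture and tissue values overlapped. Hspa13, an Hsp70-like protein of the ER, differed by -0.078 ± 0.077 and Hspa1l by -0.10 ± 0.062, and neither passed the test. Hspa1l had both group means at or below the brightest bacterial control, as had Hspb1, Hspb2 and Hspb3, so for these 4 genes the arrays give no level above that of the controls.

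**Figure D2:**
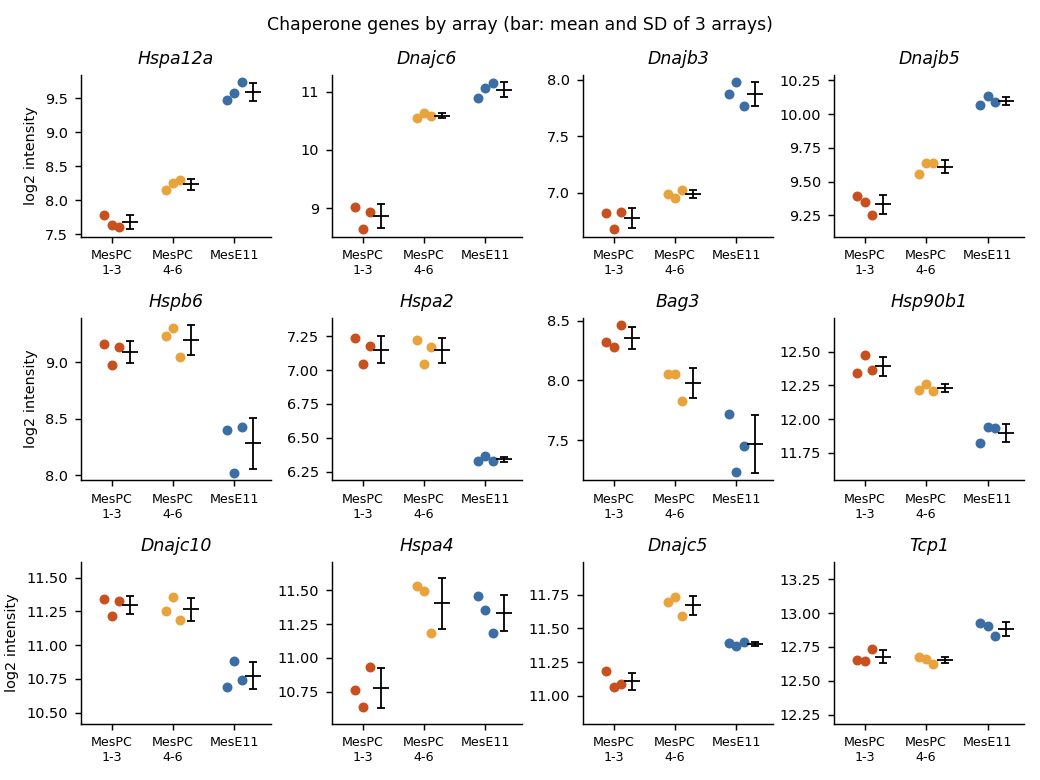
Log2 intensity of 12 chaperone genes on each array, with the mean and SD of the 3 arrays of a set (MesPC 1-3, MesPC 4-6, MesE11) beside the points. Hspa12a, Dnajb3 and Dnajb5 were lowest on MesPC 1-3 and highest in MesE11, while Hspb6, Hspa2, Bag3, Hsp90b1 and Dnajc10 were higher on every culture array than in tissue.

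Several chaperones of the ER were higher in culture. Of the 8 members listed for the ER, 7 were measured and 4 of them rose (Dnajc1, Dnajc10, Dnajc3 and Hsp90b1), against 21.9% of all genes called higher. The median difference was 0.41 over the 7, against -0.056 over all genes. The ER list was made with earlier results known and is not complete. Dnajb12, an ER membrane protein outside it, differed by 0.19 ± 0.058, a call lost with the culture sets as a random block (adjusted p 0.225). Hsp90b1 (Grp94), the Hsp90 protein of the ER, gave 12.34, 12.47 and 12.36 on MesPC arrays 1-3, 12.22, 12.26 and 12.21 on MesPC arrays 4-6, and 11.82, 11.94 and 11.94 on MesE11 arrays. No culture array overlapped with the tissue, and the difference was 0.41 ± 0.069 (adjusted p 0.00127), 1.33-fold higher in MesPC. Its cytosolic relative Hsp90ab1, which is made in all cells, gave 13.62, 13.74 and 13.64 on MesPC arrays 1-3, 13.58, 13.54 and 13.61 on MesPC arrays 4-6, and 13.42, 13.57 and 13.53 on MesE11 arrays, with overlapping groups and a difference of 0.11 ± 0.059 that did not pass the test (adjusted p 0.148).

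The ER J-domain proteins did not all move. Dnajc1, a J protein of the ER membrane, gave 9.01, 8.94 and 8.89 on MesPC arrays 1-3, 8.70, 8.65 and 8.53 on MesPC arrays 4-6, and 8.21, 8.22 and 8.21 on MesE11 arrays, with all 6 culture arrays above the tissue. It rose by 0.57 ± 0.10 (adjusted p 0.00175) on this probe set. Its other probe set did not move this way, as described further on. Dnajc10, a disulfide reductase that helps misfolded proteins leave the ER, was at 11.28 ± 0.071 in MesPC (SD, n = 6) and 10.77 ± 0.10 in MesE11 (SD, n = 3) and rose by 0.51 ± 0.063 (adjusted p 0.000185). Dnajc3 (P58IPK), a co-chaperone of the ER that also restrains an eIF2alpha kinase, was at 7.54 ± 0.21 in MesPC (SD, n = 6) and 7.08 ± 0.23 in MesE11 (SD, n = 3) and rose by 0.46 ± 0.14 (adjusted p 0.0217).

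Dnajb9, a J protein strongly induced when the ER is stressed, gave 9.39, 9.39 and 9.24 on MesPC arrays 1-3, 9.49, 9.36 and 9.41 on MesPC arrays 4-6, and 9.30, 9.51 and 9.39 on MesE11 arrays. Its groups overlapped and it differed by -0.018 ± 0.067 (adjusted p 0.844). Dnajb11, a J partner of Hspa5, differed by 0.13 ± 0.094 (adjusted p 0.29). With the culture sets as a random block, 3 of the 7 ER members passed, Dnajc3 being the one lost (adjusted p 0.136).

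The promoters of Hsp90b1 and Dnajc3 are shown because both genes rose and both windows hold the ER stress response element, the sequence that unfolded protein signalling is known to use. The letters searched, on both strands, were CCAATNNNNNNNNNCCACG and its reverse complement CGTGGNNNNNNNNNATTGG. Of the 66 members, 55 have a promoter window in the RefSeq table of the assembly GRCr8, running from 250 bases before the start of the gene to 50 after it. Hsp90b1 and Dnajc3 were the 2 of these 55 with the element, which occurs in 0.0657% of all 33469 windows. The Hsp90b1 window is chr7:23012244-23012543 (minus strand) and holds it 2 times, and the Dnajc3 window is chr15:102432417-102432716 (plus strand) and holds it once. Both are written 5′ to 3′ on the strand of the gene with the element in capitals. A match is a description of the letters and not a site shown to be bound.
Hsp90b1: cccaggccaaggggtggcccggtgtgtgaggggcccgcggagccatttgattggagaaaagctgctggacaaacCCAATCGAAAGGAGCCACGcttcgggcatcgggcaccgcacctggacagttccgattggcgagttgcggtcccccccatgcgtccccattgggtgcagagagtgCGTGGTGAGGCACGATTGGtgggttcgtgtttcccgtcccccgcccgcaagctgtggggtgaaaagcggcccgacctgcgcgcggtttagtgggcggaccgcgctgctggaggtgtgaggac
Dnajc3: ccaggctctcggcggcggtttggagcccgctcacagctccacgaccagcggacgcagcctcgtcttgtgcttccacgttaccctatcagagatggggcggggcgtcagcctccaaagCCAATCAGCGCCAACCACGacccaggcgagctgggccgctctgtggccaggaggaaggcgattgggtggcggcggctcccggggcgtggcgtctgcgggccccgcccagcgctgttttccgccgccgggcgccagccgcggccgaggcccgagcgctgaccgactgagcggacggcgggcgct

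Of 11 further ER chaperones and folding enzymes outside the list, 10 rose, against 21.9% of all genes called higher. Hspa5 (BiP), the Hsp70 protein of the ER, was at 11.94 ± 0.18 in MesPC (SD, n = 6) and 11.59 ± 0.17 in MesE11 (SD, n = 3) and rose by 0.35 ± 0.11 (adjusted p 0.0294). Serpinh1 (Hsp47), the chaperone of collagen, was at 12.22 ± 0.27 in MesPC (SD, n = 6) and 10.52 ± 0.18 in MesE11 (SD, n = 3) and rose by 1.70 ± 0.15 (adjusted p 1.98e-05), beside collagen markers that were also higher in MesPC (Col1a2 by 4.28, Col3a1 by 5.56). Of the enzymes named after their values were seen, the disulfide isomerase P4hb rose by 0.59 ± 0.099, the lectin chaperone Calr by 0.47 ± 0.12 and Hyou1, a nucleotide exchange factor of Hspa5, by 0.45 ± 0.078. Sdf2l1 differed by 0.027 ± 0.15 and did not pass the test. The count depended on the arrays: it was 6 with the culture sets as a random block and 5 without MesE11 replicate 3.

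**Figure D3:**
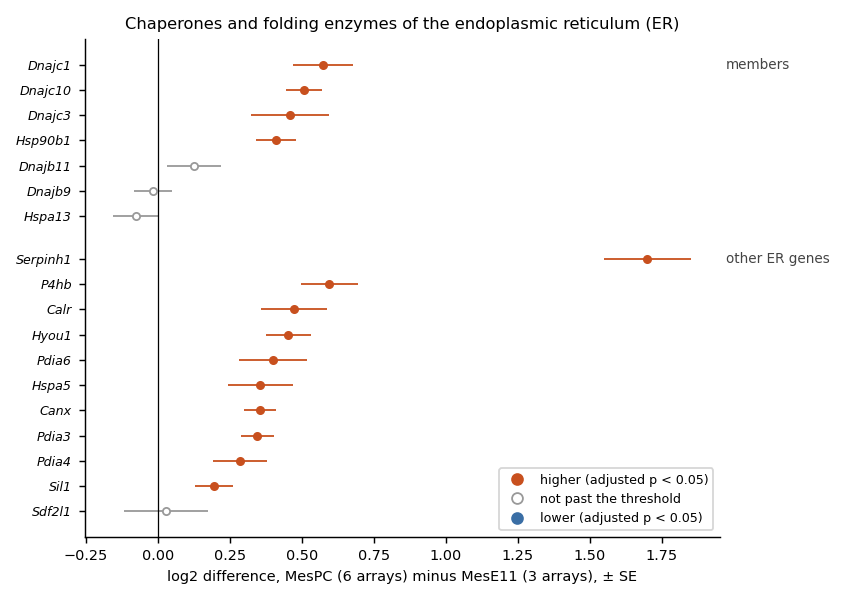
Log2 difference between MesPC (6 arrays) and MesE11 (3 arrays) for the 7 measured ER members of the list and 11 further ER chaperones and folding enzymes, with bars of 1 standard error. Of the members 4 of 7 and of the further genes 10 of 11 passed the test, all on the higher side, with Serpinh1 farthest to the right at 1.70.

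Several subunits of the cytosolic chaperonin were lower in culture. This ring, called TRiC or CCT, folds actin, tubulin and other cytosolic proteins, and 5 of its 8 subunits fell (Cct8, Cct4, Tcp1, Cct6a and Cct5), against 22.7% of all genes called lower, with a median difference of -0.203 over the 8, against -0.056 over all genes. With the culture sets as a random block all 5 calls were lost, at adjusted p 0.0682 (Cct4) to 0.191 (Cct5). Tcp1, its first subunit, gave 12.66, 12.64 and 12.73 on MesPC arrays 1-3, 12.67, 12.66 and 12.63 on MesPC arrays 4-6, and 12.93, 12.90 and 12.83 on MesE11 arrays. The culture arrays were all below the tissue arrays, and the difference was -0.22 ± 0.048 (adjusted p 0.00529). Cct8 fell by 0.36 ± 0.12 (adjusted p 0.0347), the largest fall among the subunits, and Cct4 fell by 0.29 ± 0.057 (adjusted p 0.00315).

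The other subunits moved less. Cct5 fell by 0.20 ± 0.057 and Cct6a fell by 0.20 ± 0.060 on its brightest probe set. The other probe set of Cct6a differed by 0.201 ± 0.130, and the mean of both by -0.002 (adjusted p 0.981), so its direction is not settled. Cct7 differed by -0.10 ± 0.060, Cct3 by -0.078 ± 0.076 and Cct2 by 0.15 ± 0.074 without passing the test. Without MesE11 replicate 1 or without MesE11 replicate 2, 2 subunits passed. Of 6 measured prefoldin subunits and partners, which hand proteins to TRiC, Pfdn5 fell by 0.58 ± 0.11 and Pfdn4 fell by 0.47 ± 0.16. Both were named after their values were seen, and 22.7% of all genes were called lower.

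The mitochondrial chaperonin pair did not move in this way. Hspd1 (Hsp60), which forms the ring, gave 12.73, 12.82 and 12.79 on MesPC arrays 1-3, 12.59, 12.59 and 12.51 on MesPC arrays 4-6, and 12.58, 12.74 and 12.60 on MesE11 arrays. Hspe1 (Hsp10), its lid, gave 12.68, 12.80 and 12.77 on MesPC arrays 1-3, 12.51, 12.67 and 12.54 on MesPC arrays 4-6, and 12.61, 12.71 and 12.57 on MesE11 arrays. In both genes arrays 1-3 had the highest mean and the tissue lay within the range of the cultures, and the differences were 0.031 ± 0.081 and 0.035 ± 0.075 (adjusted p 0.767 and 0.721). Of the other measured members listed for mitochondria, Dnajc15, a J protein of the inner membrane, rose by 0.56 ± 0.10 (adjusted p 0.00202), while Dnaja3 differed by -0.19 ± 0.083 (adjusted p 0.0895).

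Of the small heat shock proteins, which hold unfolded proteins in solution without ATP, Hspb6 was the 1 of 6 that passed on the brightest probe set. Among all genes 44.6% passed it. Hspb6 (Hsp20), best known from muscle, gave 9.16, 8.98 and 9.13 on MesPC arrays 1-3, 9.23, 9.30 and 9.05 on MesPC arrays 4-6, and 8.40, 8.02 and 8.42 on MesE11 arrays. All cultures were above all tissue arrays, the culture sets overlapped, and the difference was 0.86 ± 0.10 (adjusted p 0.000133), 1.81-fold higher in MesPC and the largest rise among the members. Cryab (alphaB-crystallin), a related small heat shock protein outside the list that astrocytes and muscle make, was at 9.27 ± 0.38 in MesPC (SD, n = 6) and 8.11 ± 0.17 in MesE11 (SD, n = 3) and rose by 1.16 ± 0.20 (adjusted p 0.00149).

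The better-known Hspb1 (Hsp27) gave 6.12, 6.26 and 6.16 on MesPC arrays 1-3, 5.89, 6.09 and 5.81 on MesPC arrays 4-6, and 6.05, 6.11 and 6.11 on MesE11 arrays, all of them at or below the level of the bacterial controls, and differed by -0.036 ± 0.096 (adjusted p 0.773). Hspb8 (Hsp22), the partner of Bag3, gave 7.96, 7.87 and 7.75 on MesPC arrays 1-3, 8.15, 7.79 and 7.95 on MesPC arrays 4-6, and 7.92, 7.79 and 7.91 on MesE11 arrays, with overlapping groups and a difference of 0.042 ± 0.086 (adjusted p 0.703). The further probe set of Hspb8 did pass the test, with a difference of -0.142 ± 0.05 (adjusted p 0.0452) and no overlap between culture and tissue. Hspb7 differed by -0.023 ± 0.099, Hspb2 by -0.079 ± 0.066 and Hspb3 by -0.15 ± 0.070. The Hspb-named partners Hspbp1, an exchange factor of Hsp70, and Hspbap1 differed by -0.038 ± 0.073 and -0.13 ± 0.083, and neither passed the test.

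The Bag genes split. Bag3, which joins Hsp70 to Hspb8 and sends their clients to autophagy, gave 8.32, 8.28 and 8.46 on MesPC arrays 1-3, 8.05, 8.05 and 7.83 on MesPC arrays 4-6, and 7.72, 7.24 and 7.45 on MesE11 arrays. Each culture array was above each tissue array, and arrays 1-3 were highest. Bag3 rose by 0.69 ± 0.14 (adjusted p 0.00398), a 1.62-fold higher level in MesPC. Bag1, an exchange factor of Hsp70 that binds Bcl2, was at 10.49 ± 0.12 in MesPC (SD, n = 6) and 10.996 ± 0.19 in MesE11 (SD, n = 3) and fell by 0.50 ± 0.095 (adjusted p 0.00231). Bag2, Bag6 and Bag5 differed by 0.16 ± 0.090, 0.045 ± 0.089 and -0.035 ± 0.069 and did not pass the test.

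The J-domain proteins are the largest family of the list. Of 4 class A members 1 fell, of 9 class B members 2 rose and 2 fell, and of 18 class C members 6 rose and 3 fell. Among all genes, 21.9% were called higher and 22.7% lower. Dnaja1, a general partner of cytosolic Hsp70, gave 12.20, 12.08 and 12.16 on MesPC arrays 1-3, 12.15, 12.15 and 12.26 on MesPC arrays 4-6, and 12.40, 12.52 and 12.45 on MesE11 arrays. All culture arrays were below all tissue arrays, and the difference was -0.29 ± 0.055 (adjusted p 0.00231). Dnaja2 and Dnaja4 differed by -0.14 ± 0.055 and 0.13 ± 0.061 and did not pass the test.

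In class B, Dnajb1, the classical heat-induced Hsp40, gave 10.16, 10.05 and 10.22 on MesPC arrays 1-3, 10.25, 10.35 and 10.10 on MesPC arrays 4-6, and 10.36, 10.42 and 10.32 on MesE11 arrays, with overlapping groups, and its difference of -0.18 ± 0.070 missed the threshold (adjusted p 0.0621). Dnajb3, known in mouse from sperm, gave 6.82, 6.68 and 6.83 on MesPC arrays 1-3, 6.99, 6.96 and 7.02 on MesPC arrays 4-6, and 7.87, 7.98 and 7.77 on MesE11 arrays. It fell by 0.99 ± 0.085 (adjusted p 1.61e-05), with no overlap between the groups. Its culture values lie close to the brightest bacterial control (6.68), so the size of this fall is not given as a fold. Dnajb5 gave 9.40, 9.35 and 9.25 on MesPC arrays 1-3, 9.55, 9.64 and 9.63 on MesPC arrays 4-6, and 10.07, 10.13 and 10.09 on MesE11 arrays, again without overlap, and fell by 0.63 ± 0.092 (adjusted p 0.000525).

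Dnajb4 rose by 0.39 ± 0.11 (adjusted p 0.0178) and Dnajb12, a J protein anchored in the ER membrane, by 0.19 ± 0.058 (adjusted p 0.0259). Dnajb13 differed by 0.21 ± 0.079 and Dnajb2, which is enriched in neurons, by 0.13 ± 0.12, and neither passed the test.

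In class C, the members that serve the synapse showed how much the culture arrays differ among themselves. Dnajc6 (auxilin), the neuronal J protein that brings Hsp70 to clathrin-coated vesicles to strip their coat, gave 9.02, 8.64 and 8.93 on MesPC arrays 1-3, 10.54, 10.63 and 10.59 on MesPC arrays 4-6, and 10.89, 11.07 and 11.15 on MesE11 arrays. All 6 culture arrays were below all 3 tissue arrays, but arrays 1-3 were far lower than arrays 4-6. Over the 6 arrays the difference of -1.31 ± 0.48 just missed the threshold (adjusted p 0.0505). Within the sets it passed in both: the difference from MesE11 was -2.17 ± 0.095 on arrays 1-3 and -0.45 ± 0.095 on arrays 4-6 (adjusted p 4.52e-10 and 0.00168). These values share the tissue arrays.

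Dnajc5 (cysteine string protein), the J protein of synaptic vesicles, gave 11.18, 11.06 and 11.09 on MesPC arrays 1-3, 11.69, 11.73 and 11.59 on MesPC arrays 4-6, and 11.39, 11.37 and 11.40 on MesE11 arrays. The tissue lay between the culture sets, so that the difference over all cultures was 0.005 ± 0.16 (adjusted p 0.981), while arrays 1-3 differed from MesE11 by -0.27 ± 0.063 and arrays 4-6 by 0.28 ± 0.063 (adjusted p 0.00227 and 0.00221). The neuronal markers were lower on arrays 1-3 than on arrays 4-6 in 5 of 5 cases, and their part in this was not tested.

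Other class C members fell into several roles. Dnajc12, a co-chaperone of the aromatic amino acid hydroxylases that include tyrosine hydroxylase, fell by 0.47 ± 0.15 (adjusted p 0.0296), beside Th itself, which differed by -3.08. Dnajc22 fell by 0.36 ± 0.060, and Dnajc2, a J protein of the ribosome, fell by 0.32 ± 0.11. Dnajc13, which acts on endosomes, rose by 0.30 ± 0.064 and Dnajc21, which acts in ribosome assembly, by 0.28 ± 0.066.

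Beside Dnajc6, 8 class C members did not pass the test, with differences from -0.14 ± 0.074 (Dnajc24) to 0.24 ± 0.092 (Dnajc4). They were Dnajc4, Dnajc7, Dnajc8, Dnajc14, Dnajc17, Dnajc24, Dnajc27 and Dnajc5. The calls of Dnajc12 and Dnajc2 were lost under the random block (adjusted p 0.0801 and 0.192), as was that of Dnajc21 (0.112).

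The heat-inducible genes did not move as one group. Of 14 genes listed as heat-inducible from textbook knowledge, 10 were measured, of which Bag3 and Dnajb4 rose and Dnaja1 fell. The calls of Dnajb4 and Dnaja1 were lost with the culture sets as a random block (adjusted p 0.0907 and 0.0558). Among all genes, 21.9% were called higher and 22.7% lower. The median difference was 0.033 over the 10 genes, against -0.056 over all genes. Hsf1, the factor that drives their induction, gave 8.72, 8.75 and 8.78 on MesPC arrays 1-3, 8.90, 8.90 and 8.63 on MesPC arrays 4-6, and 8.65, 8.49 and 8.61 on MesE11 arrays. The lowest culture array lay below the highest tissue array, and the difference of 0.20 ± 0.073 missed the threshold (adjusted p 0.0524). Hsf2, a related factor outside the list, differed by -0.12 ± 0.075 (adjusted p 0.231).

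The promoters of Dnaja1, Bag3, Hspe1 and Hspb6, the last of which is not on the heat-inducible list, are shown because they hold units of the heat shock element, which Hsf1 binds. Dnaja1 holds a run of 3 units and Hspe1 holds 2 such runs that overlap, while Bag3 and Hspb6 hold only pairs of 2 units. The genes went different ways: Dnaja1 fell, Bag3 and Hspb6 rose, and Hspe1 did not pass the test. Heat shock elements are repeats of the unit GAA in alternating orientation. On either strand, 2 units (GAANNTTC or TTCNNGAA) occur in 15 of the 55 members' windows and in 15.9% of all windows. A run of 3 units (GAANNTTCNNGAA or TTCNNGAANNTTC), each of which holds both of the shorter forms, occurs in 5 members (Cct4, Dnaja1, Hspd1, Hspe1 and Hsph1) and in 0.798% of all windows. Of these 5 genes Cct4 and Dnaja1 fell in MesPC, and Hspd1, Hspe1 and Hsph1 did not pass the test. Hspd1 and Hspe1 lie head to head, and their windows hold the same overlapping runs.

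The windows, from the RefSeq table of GRCr8, are chr9:64084077-64084376 (plus strand) for Hspe1, chr5:60638154-60638453 (plus strand) for Dnaja1, chr1:192533210-192533509 (plus strand) for Bag3 and chr1:94934122-94934421 (plus strand) for Hspb6. They are written 5′ to 3′ on the strand of the gene. Capitals mark the run of 3 units in Dnaja1 and the pairs of 2 units in Bag3 and Hspb6. In Hspe1 they mark 2 overlapping runs of 3 units as a single stretch. The letters alone do not show that Hsf1 binds there.
Hspe1: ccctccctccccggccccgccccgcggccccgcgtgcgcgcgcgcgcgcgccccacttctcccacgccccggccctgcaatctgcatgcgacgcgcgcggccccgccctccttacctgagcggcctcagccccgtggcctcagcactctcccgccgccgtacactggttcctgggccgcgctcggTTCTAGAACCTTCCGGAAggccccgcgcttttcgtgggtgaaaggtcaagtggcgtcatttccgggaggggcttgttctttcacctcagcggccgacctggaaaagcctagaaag
Dnaja1: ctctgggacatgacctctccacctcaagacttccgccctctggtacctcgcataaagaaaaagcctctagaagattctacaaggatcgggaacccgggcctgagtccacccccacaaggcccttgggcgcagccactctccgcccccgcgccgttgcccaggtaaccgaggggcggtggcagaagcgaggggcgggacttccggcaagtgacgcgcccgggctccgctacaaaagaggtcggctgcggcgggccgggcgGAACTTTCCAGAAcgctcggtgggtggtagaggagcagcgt
Bag3: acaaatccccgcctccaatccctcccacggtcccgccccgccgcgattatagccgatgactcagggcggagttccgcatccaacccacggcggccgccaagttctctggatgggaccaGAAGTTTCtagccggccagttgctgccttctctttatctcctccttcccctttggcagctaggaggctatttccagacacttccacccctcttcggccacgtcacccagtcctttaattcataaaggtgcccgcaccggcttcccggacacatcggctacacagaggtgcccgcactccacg
Hspb6: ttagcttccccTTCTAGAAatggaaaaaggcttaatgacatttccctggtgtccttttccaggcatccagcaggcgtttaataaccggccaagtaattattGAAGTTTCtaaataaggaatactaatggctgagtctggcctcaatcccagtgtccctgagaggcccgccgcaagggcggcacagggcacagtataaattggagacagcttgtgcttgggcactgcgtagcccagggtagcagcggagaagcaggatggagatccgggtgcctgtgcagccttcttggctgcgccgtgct

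The culture arrays were then compared with each other. This split was recognised from how alike the arrays are, so its calls describe how far apart the arrays lie and say nothing of a treatment. On MesPC arrays 1-3, 6 members were higher and 15 were lower than on MesPC arrays 4-6, 21 of 66 in all (31.8%), against 32.7% of all genes in either direction. The higher members made up 9.09%, against 15.2% of all genes, and the lower ones 22.7%, against 17.5%. Dnajc6 alone passed with at least a 2-fold difference, against 1.81% of all genes. The median difference was -0.029 over the members and 0.033 over all genes.

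The lower group held 7 of the 18 class C and 4 of the 9 class B J-domain proteins, against 17.5% of all genes called lower. The calls of Dnajc14, Dnajc7, Dnajc2, Dnajc8, Dnajb4 and Dnajb3 were each lost in some fits that left out 1 array. Dnajc6 differed by -1.72 ± 0.095 (adjusted p 3.05e-08) and was 3.3-fold lower on arrays 1-3. Hspa4 differed by -0.63 ± 0.10, Hspa12a by -0.56 ± 0.081 and Dnajc5 by -0.56 ± 0.063. The differences of Dnajc12, Dnajb2 and Cct8 were -0.48 ± 0.077, -0.38 ± 0.062 and -0.38 ± 0.067. Those of Dnajc14, Dnajb4, Dnajb5, Dnajc7, Dnajc2, Bag6, Dnajb3 and Dnajc8 were smaller, from -0.33 ± 0.084 (Dnajc14) to -0.20 ± 0.062 (Dnajc8).

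The values by array, given above for Dnajc6, Hspa4, Hspa12a and Dnajc5, show no overlap between the sets. Among the 15 lower members, Dnajc6, Dnajc5, Dnajb2 and Dnajc12 are genes with a known place in neurons or monoamine-making cells. They were lower on the culture arrays with lower neuronal markers. In MesE11, where these markers were highest, Dnajc6 and Dnajc12 were highest too (means 11.036 and 10.374). Dnajc5 and Dnajb2 were lower in MesE11 (11.385 and 10.089) than on arrays 4-6 (11.67 and 10.412). The further probe set of Dnajc5 was not lower on arrays 1-3 (0.242 ± 0.110). The part of the neuronal share in these differences was not tested.

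Of the 6 higher members, Bag3 differed most (0.38 ± 0.11, adjusted p 0.0169), followed by Dnajc1 (0.32 ± 0.064, adjusted p 0.00189) and Dnajc15 (0.26 ± 0.081, adjusted p 0.025). Dnajc15 had given 10.89, 10.93 and 10.84 on MesPC arrays 1-3, 10.61, 10.68 and 10.57 on MesPC arrays 4-6, and 10.29, 10.31 and 9.996 on MesE11 arrays. Hspb1, whose levels lie within those of the bacterial controls, was higher by 0.25 ± 0.076, Bag2, which restrains the ubiquitin ligase Stub1, by 0.25 ± 0.068 and Hspd1 by 0.22 ± 0.066. The calls of Bag3, Dnajc15, Hspb1, Bag2 and Hspd1 were each lost in some fits that left out 1 array, while that of Dnajc1 held. Hsp90b1 differed by 0.16 ± 0.064 and did not pass the test (adjusted p 0.0668). Outside the list, 7 of 11 further ER genes were higher on arrays 1-3, against 15.2% of all genes, Hspa5 by 0.29 ± 0.088 and Serpinh1 by 0.47 ± 0.087 among them, and Cryab was higher by 0.68 ± 0.085.

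All values on arrays 1-3 were above those on arrays 4-6 for 14 members, against 26.0% of all genes, and below them for 18, against 22.4%. The markers of dividing cells were higher on arrays 1-3 in 4 of 4 cases. Leaving out 1 culture array changed the count of called members to as few as 13 (without MesPC replicate 2).

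**Figure D4:**
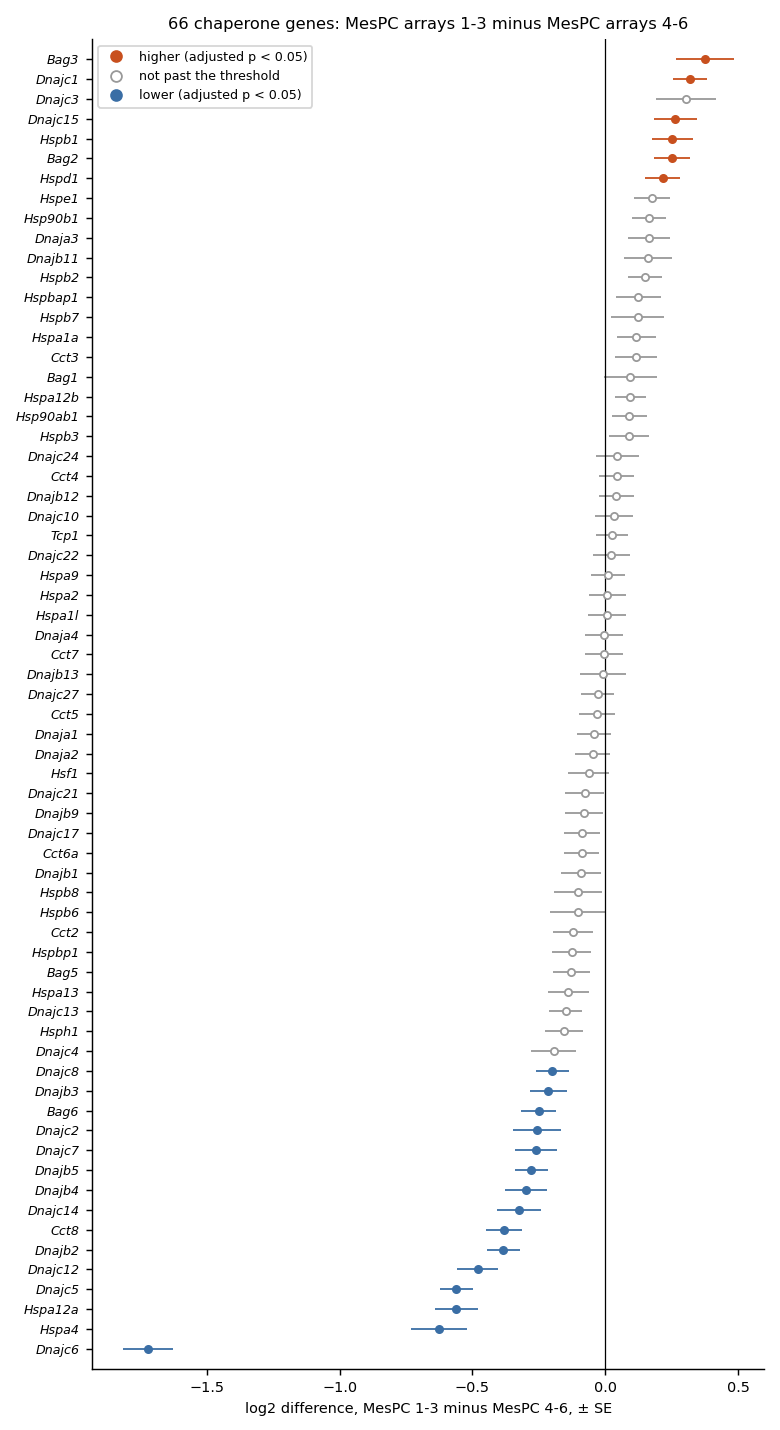
Log2 difference between MesPC arrays 1-3 and MesPC arrays 4-6 (3 arrays each) for the 66 chaperone genes, in order of size, with bars of 1 standard error from a fit over all 9 arrays. Filled points passed the test: 6 genes were higher on arrays 1-3 and 15 were lower, Dnajc6 farthest out at -1.72.

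Each culture set was also set against the tissue, which both comparisons share. On MesPC arrays 1-3, 36 members differed from MesE11, against 53.6% of all genes. Of these 15 were higher, against 26.3% of all genes, and 21 lower, against 27.3%. On MesPC arrays 4-6, 35 members differed, against 54.7% of all genes, with 20 higher, against 24.2%, and 15 lower, against 30.5%. The split on arrays 4-6 depended on the scaling: it was 16 higher and 21 lower after a second quantile normalization, and 15 higher and 23 lower after centring on the median.

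The genes that led the comparison over all cultures held in each set. Hspa12a differed from MesE11 by -1.92 ± 0.081 on arrays 1-3 and by -1.36 ± 0.081 on arrays 4-6. Hspa2 was higher by 0.81 ± 0.070 and 0.81 ± 0.070, Hspb6 by 0.81 ± 0.10 and 0.91 ± 0.10, Bag3 by 0.88 ± 0.11 and 0.51 ± 0.11, and Hsp90b1 by 0.49 ± 0.064 and 0.33 ± 0.064, each on arrays 1-3 and arrays 4-6 in that order. All passed the test in both sets. Tcp1 and Cct4 were also lower in both, Tcp1 with differences of -0.21 ± 0.060 and -0.23 ± 0.060, whereas Hspa4 was lower on arrays 1-3 (-0.55 ± 0.10, adjusted p 0.000491) and did not pass on arrays 4-6 (0.073 ± 0.10, adjusted p 0.568).

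For 17 members the array holds more than 1 probe set, and these gave a check of the calls. In MesPC against MesE11, all probe sets were called the same way for 4 genes (Dnaja1, Dnajb12, Dnajb5 and Dnajc10), none was called for 6, some were called for 6, and for 1 gene, Hspa9, the calls were opposite. The brightest Hspa9 probe set differed by 0.31 ± 0.053, a second by 0.366 ± 0.099 and the dimmest by -0.366 ± 0.072. The direction of Hspa9 is thus not settled by these arrays. The further probe set of Dnajc1 differed by -0.226 ± 0.092 and did not pass the test. The mean of the Dnajc1 probe sets differed by 0.174 and did not pass either. On arrays 4-6 against MesE11 the Dnajc1 probe sets were called in opposite directions (0.413 on the brightest, -0.28 on the other). Its direction is thus not settled either. For Dnaja4 the further probe set passed (0.13 ± 0.061 on the brightest, 0.572 ± 0.099 on the other).

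For Dnajc6 the further probe set did pass over all cultures (-1.06 ± 0.227, adjusted p 0.00471), and both probe sets differed between the culture sets, the further one by -0.793 ± 0.073. Dnajc14 was likewise lower on arrays 1-3 by both its probe sets. For Dnajc5 the further probe set did not follow the brightest one (0.242 ± 0.110 against -0.56 ± 0.063 for arrays 1-3 minus arrays 4-6), and for Hsp90ab1 the further probe set differed between the culture sets by 0.665 ± 0.081, while the brightest differed by 0.091 ± 0.065. What parts of the transcripts these probe sets read was not analysed here.

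**Figure D5:**
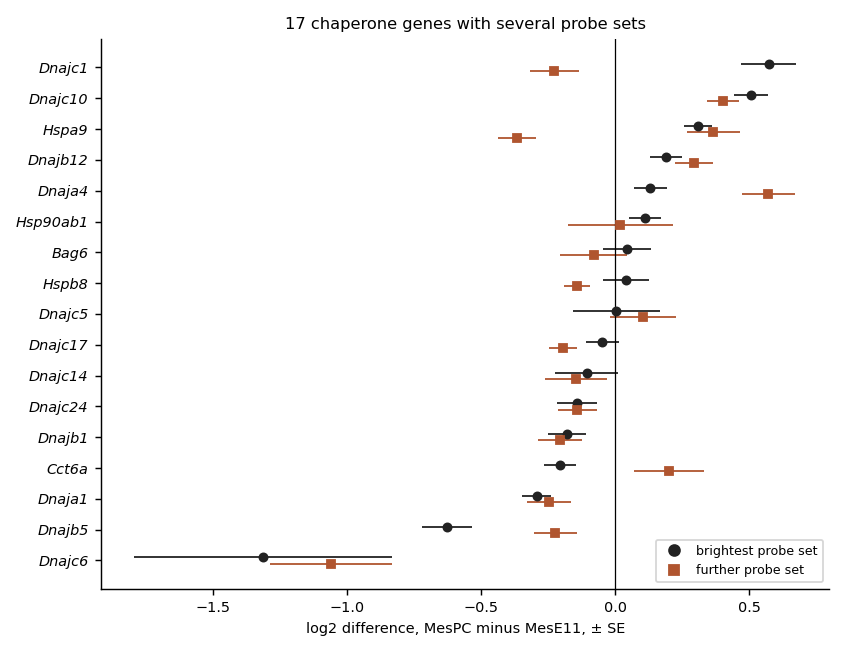
Log2 difference between MesPC (6 arrays) and MesE11 (3 arrays) on each probe set of the 17 chaperone genes that have several, with bars of 1 standard error. Circles are the brightest probe set of a gene and squares the further ones, which lie on the other side of 0 for 1 of the 2 squares of Hspa9 and for Dnajc1, Cct6a, Bag6 and Hspb8.

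Co-chaperones outside the list showed both directions. Of 13 that work with Hsp70 and Hsp90 in the cytosol, St13, which stabilises Hsp70 bound to its client, rose by 0.33 ± 0.078, while 3 fell. For this and the mitochondrial list below, the shares of all genes were 21.9% called higher and 22.7% called lower. Chordc1, a partner of Hsp90, was at 10.07 ± 0.12 in MesPC (SD, n = 6) and 10.92 ± 0.065 in MesE11 (SD, n = 3) and fell by 0.85 ± 0.074 (adjusted p 1.74e-05). Fkbp4, the immunophilin of steroid receptor complexes, fell by 0.40 ± 0.069 (adjusted p 0.00138), and Ahsa1, the activator of the Hsp90 ATPase, fell by 0.17 ± 0.058 (adjusted p 0.0393). The other 9, among them the scaffold Stip1 (-0.048 ± 0.061), the ligase Stub1 (-0.14 ± 0.060) and the kinase partner Cdc37 (0.010 ± 0.043), did not pass the test. Of 6 mitochondrial chaperones and proteases, Trap1, the mitochondrial Hsp90, rose by 0.25 ± 0.072 and Clpp, a protease, fell by 0.43 ± 0.081. These genes were on a fixed list and were named after their values were seen.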

How the data were processed

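RNA of 6 culture samples (MesPC) and 3 tissue samples (MesE11) was hybridised to Affymetrix rat arrays. The authors deposited log2 intensities made with RMA, per the submitters' processing notes, which name no version. This method removes background, brings the arrays to a common distribution and combines the probes of a set, so a difference is one relative to the rest of the array.

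Of 15923 probe sets, 57 controls were left out and 15866 tested. The array's annotation names 1 gene for 12783 of these and several genes for 312, and 2771 have no symbol in it. All 84 probe sets of the 66 members matched the RefSeq gene table of GRCr8, with 0 symbols changed. Each gene is given by its brightest probe set. The R package limma (3.58.1, under R 4.3.3; functions lmFit and eBayes) compared MesPC with MesE11 over 9 arrays, and a fit with 3 groups compared MesPC arrays 1-3, MesPC arrays 4-6 and MesE11. Two-sided p-values were adjusted by the Benjamini-Hochberg method over all 15866 probe sets, with a threshold of 0.05. The fit was tested on simulated arrays. Promoter sequences came from RefSeq and were searched on both strands.

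The members, the role groups, the further chaperones and the markers were chosen with earlier results of these data known. Values by array are given for a fixed list of well-known members and for the 3 largest called rises and falls of each contrast. Other genes were named after their values were seen where the text says so. Alternatives were a second quantile normalization, centring on the median, leaving out dim probe sets, averaging the probe sets of a gene, leaving out each array, a replicate block, the culture sets as a random block and a 2-fold limit. Scanner files were not used here.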

Additional observations from a re-analysis of the deposited data

Results flagged for a closer look

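Among the 66 members' values on the 6 culture arrays, 2 single arrays stood apart from the other 5 of their group, by the gap to the nearest array divided by the whole range (critical value 0.625). Chance gives such a gap in about 1 in 20 groups. Bag1 was lowest on MesPC array 6, at 10.265, against 10.473 on the next array and 10.582 at the other end of the range, a ratio of 0.656. Cct2 was highest on MesPC array 4, at 12.059, against 11.871 on the next array and 11.772 at the other end, a ratio of 0.654.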

How the results depend on the processing

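In MesPC against MesE11, 27 members passed the test, and 12 of them passed in the same direction in every refit that held their probe set. Of the 12, Bag3, Dnajb3, Dnajc22 and Hspa2 are not in the fit without dim probe sets. The count was 20 to 29 when 1 array was left out, 14 with the culture sets as a random block (consensus correlation 0.447) and 1 with a 2-fold limit. Over the culture sets, MesPC arrays 1-3 against arrays 4-6, 21 members passed and 7 of them passed in the same direction in every refit. The count was 13 to 22 when 1 array was left out, the lowest without MesPC replicate 2, and 1 with a 2-fold limit. Against MesE11, leaving out 1 array gave 28 to 37 members for arrays 1-3 and 25 to 35 for arrays 4-6. The split of higher and lower calls depended on the scaling: between the culture sets it was 6 and 15 as deposited, 9 and 11 after quantile normalization and 9 and 13 after centring. For arrays 4-6 against MesE11 it was 20 and 15, 16 and 21, and 15 and 23 in the same order. Centring put the median of all probe sets at -0.103 in MesPC against MesE11, against -0.066 as deposited. Bag6 turned from -0.251 to 0.009 between the culture sets with the mean of its probe sets, because these disagree. The cause of the other changes was not tested.

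The replicate numbers 1 to 3 are shared by MesPC and MesE11. Deviations of equal numbers correlated at 0.0836, -0.119 and -0.111, with MesPC arrays 4-6 not included. Such correlations between unlike kinds of sample cannot show whether equal numbers share an embryo group. With these numbers as a replicate block, which leaves out MesPC arrays 4-6, 32 members passed, 14 higher and 18 lower, and Dnajc5 had a difference of -0.274 (adjusted p 0.00961), against 0.005 over all arrays.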
